A study of Mus musculus with 6 samples.

Results

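Pan-endothelial genes are those that blood vessel endothelium expresses in most organs and vessel types. The 35 described here were chosen by name, as junction, surface and transcription factor genes shared by blood vessels. They come from 54532 genes counted in whole mouse adrenal glands. No cut on their values was used, but they were chosen with earlier results of these data known. By role, 16 encode junction and other surface or secreted proteins, 10 encode transcription factors, 3 act in coagulation and 6 in signalling inside the cell. All 35 were found in the count table, and 35 of 35 passed the filter on low counts that left 16300 genes for testing. Bulk RNA sequencing was done on 3 samples labelled WT and 3 labelled VEGF/LysM, in a study of how macrophages maintain specialised endothelium in the gland. The labels give the tissue and the group name alone: age, sex, strain, the VEGF allele and the driver behind the name VEGF/LysM are not described in them. They also do not say whether the replicates are separate animals, so p values here reflect the spread from sample to sample, and that spread may be technical.

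Endothelial cells line all blood vessels and are held together by adherens junctions built on VE-cadherin and by tight junctions built on claudin-5. Transcription factors of the ETS, SOX and GATA families, with Tal1 and its partner Lmo2, help to keep the genes of the cell type switched on. The adrenal cortex is threaded by fenestrated capillaries into which steroid hormones pass, and VEGF-A from neighbouring cells maintains such capillaries in endocrine organs. Because the 35 genes are shared by vessels of different kinds, their mean serves here as a measure of how much endothelial RNA a library holds. In a bulk sample, fewer endothelial cells and less RNA per endothelial cell cannot be told apart.

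Libraries held 16476879 to 18671950 counts. Levels are in CPM, a gene's counts brought to a common library size, here with TMM factors, which correct for differences in composition. Adrenal identity was clear in all 6 libraries from Star, which brings cholesterol into mitochondria for steroid synthesis (10807 to 16990.1 CPM), and from Th, the first enzyme of catecholamine synthesis (338 to 731 CPM). Vegfa itself read 295, 241 and 332 CPM in WT replicates 1 to 3 and 180.3, 193 and 501 CPM in VEGF/LysM replicates 1 to 3, so the groups overlapped and the whole-gland level does not test the labels. Lyz2, the gene of the lysozyme that LysM names, read 186, 275 and 263 CPM in WT and 132, 111 and 134 CPM in VEGF/LysM. Its groups did not overlap, as for 2.41% of all genes tested with VEGF/LysM the lower group. The log2 fold change of Lyz2 was -0.94 ± 0.19 SE (edgeR's quasi-likelihood test with Benjamini-Hochberg adjustment, adjusted p = 0.999), or -0.88 ± 0.19 without WT replicate 3. WT replicate 3 stood apart: 10 hepatocyte markers summed to 76369 CPM there and to 135 to 402 CPM in the other 5 libraries. Fgb, a fibrinogen chain made in liver, was at 0 in WT replicates 1 and 2 and VEGF/LysM replicates 1 and 2. VEGF/LysM replicate 3 held liver transcripts too, at far lower levels. Alb, the gene of albumin, read 169 CPM there, 51376 CPM in WT replicate 3 and at most 1.06 CPM in the rest. The hepatocyte mean log2 level was 4.23 in VEGF/LysM replicate 3, 11.6 in WT replicate 3 and 0.83 to 1.27 in the rest. Kidney tubule markers summed to 34.6 CPM in WT replicate 3 and to 0.293 to 2.77 CPM elsewhere, with 6 of 6 highest there. Markers of liver sinusoidal endothelium summed to 384 CPM in WT replicate 3 and to 126 to 186 CPM elsewhere, with 8 of 9 highest in that library. Lymphocyte markers summed to 1171 CPM in WT replicate 3 and to 70.6 to 277 CPM elsewhere, with 10 of 10 highest there, and their mean log2 level was higher in every WT library than in every VEGF/LysM library. Red cell markers also separated the groups, at mean log2 levels of 4.71, 2.72 and 3.60 in WT and 2.58, 2.10 and 2.53 in VEGF/LysM, with 7 of 8 genes highest in WT replicate 1. The part of blood cells in the results below was not tested. Values that turn on WT replicate 3 are given below with and without it for the genes described in full. The log2 fold changes of all 35 without it are in the plot of changes.

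Scaled by TMM, the mean level of the 35 genes was nearly the same in all 6 libraries. WT replicate 3 also held the liver sinusoidal markers given above, so its mean is not of the gland alone. The part of liver endothelium in it was not tested. The mean log2(CPM + 0.5) over the 35 genes was 4.65, 4.71 and 4.72 in WT replicates 1 to 3 and 4.68, 4.72 and 4.67 in VEGF/LysM replicates 1 to 3. The groups overlapped, and the 6 values lay within 0.069 log2 units of each other. The WT mean was 4.69 ± 0.036 and the VEGF/LysM mean 4.69 ± 0.027 (SD, n = 3 each), a difference of -0.0032 log2 units. No test is attached to this mean, since its genes were proposed with results of these data known. Summed without logs, the 35 genes took between 1204 and 1286 CPM in the WT libraries and between 1177 and 1226 CPM in those of VEGF/LysM.

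The value for WT replicate 3 depended on the scaling. With library size alone and no correction for composition, the endothelial mean was 4.36 in WT replicate 3 and 4.71 to 4.77 in the other 5 libraries, and the group difference was 0.11. The same scaling moved the median log2 fold change of all genes tested from 0.0013 to 0.099 and their share above 0 from 50.3% to 66.2%, so the members moved with the genes at large. Genes that failed the filter took 7.51% of the counts of WT replicate 3, against 0.122% to 0.209% elsewhere, and TMM gave that library a factor of 0.84 against 1.02 to 1.05.

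**Figure D1:**
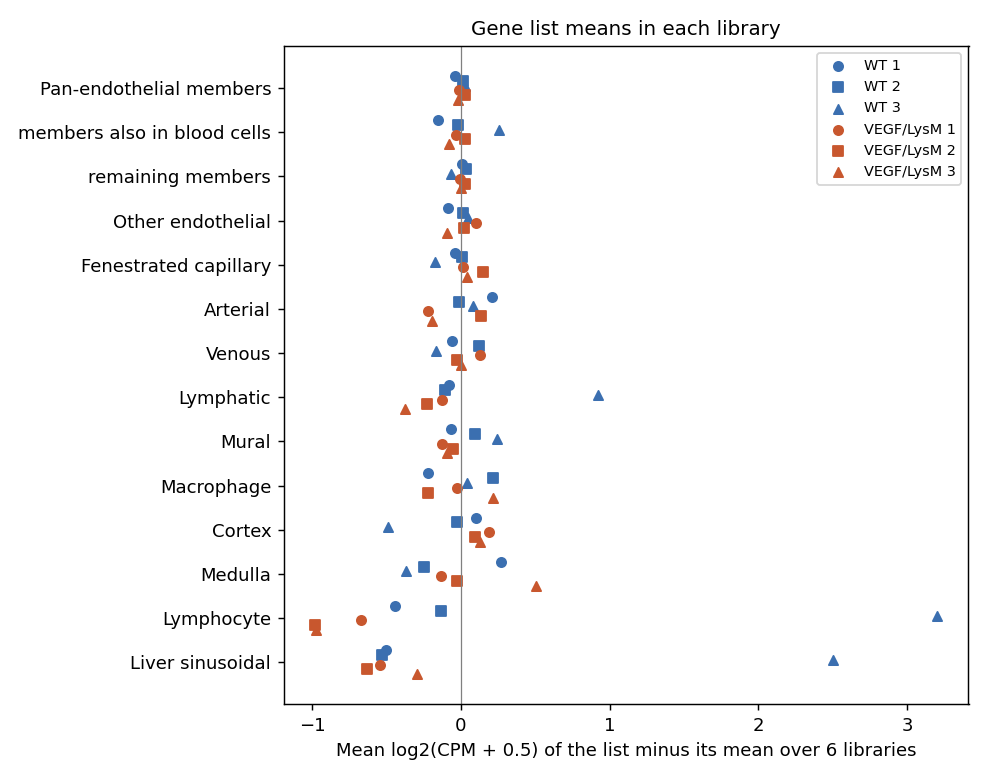
Mean log2(CPM + 0.5) of each gene list in each library (x axis), as the difference from the list's own mean over the 6 libraries; rows are lists, blue marks are WT, orange marks are VEGF/LysM and the shape gives the replicate. The pan-endothelial marks sit within 0.069 log2 units of each other, while WT replicate 3 lies far to the right in the lymphocyte and liver sinusoidal rows.

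Lists for other cells of the gland varied more between the same libraries. The mean log2 value ranged over 0.68 units for 10 cortex genes, over 0.87 units for 10 medulla genes and over 0.44 units for 10 macrophage genes. These lists hold fewer genes than the endothelial one, so each gene weighs more in their means. Most of the cortex range came from WT replicate 3, at a mean log2 level of 10.524 against 10.983 to 11.201 in the rest. The medulla mean was also lowest in WT replicate 3, and it was highest in VEGF/LysM replicate 3. Neither extreme of the macrophage mean lay in WT replicate 3. Among the 35, the 10 listed as also expressed by blood cells ranged from 4.58 to 4.99, with the highest value in WT replicate 3. The other 25 ranged from 4.61 to 4.70, with the lowest value in that library. This split is not a clean one, since the other 25 include Vwf, which megakaryocytes also make.

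Gene by gene, no member passed the threshold for a difference between the groups. edgeR's quasi-likelihood test with Benjamini-Hochberg adjustment called 0 of the 35 at the threshold of 0.05, against 0% of all 16300 genes, and the members' adjusted p values were 0.999. Before adjustment, 0 members had a p under 0.05 in that test, against 2.82% of all genes. DESeq2 and limma-voom called 0 genes after adjustment and put 3.33% and 1.37% of all genes under 0.05 before it. Log2 fold changes, given throughout as VEGF/LysM minus WT, ran from -0.65 for Ets1 to 0.34 for Cyyr1, with 18 above 0 and 17 below. Under library-size scaling 26 were above 0 and 9 below. The median of the 35 was 0.0059 beside 0.0013 over all genes tested, and the median size regardless of sign was 0.11 beside 0.17 over all genes and 0.14 over the 11153 genes with a mean CPM in the members' range. The groups did not overlap for 1 member, Sox17, which was higher in VEGF/LysM, and for 5.95% of all genes tested (3.54% higher and 2.41% lower in VEGF/LysM).

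The data set a bound on how large a change could have been missed. The 95% interval of the change lay inside a 2-fold range in either direction for 32 of 35 members, against 62.9% of all genes tested and 77.7% of the genes in that CPM range. The exceptions were Ets1, S1pr1 and Vwf. Inside a 1.5-fold range lay 15 of 35 (42.9%), against 30.5% of all genes and 39.3% of those in the members' CPM range. Without WT replicate 3, the interval lay inside 2-fold for 35 of 35 and inside 1.5-fold for 20 of 35, against 68.8% and 38.6% of all genes, and the changes ran from -0.45 for Cldn5 to 0.44 for Cyyr1. The number of member calls without that library was again 0, with 0 at an unadjusted p under 0.05 against 2.09% of all genes. Member counts were between 63 and 2913 per library, so the relative counting error was largest for Tal1, the least abundant member by CPM.

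**Figure D2:**
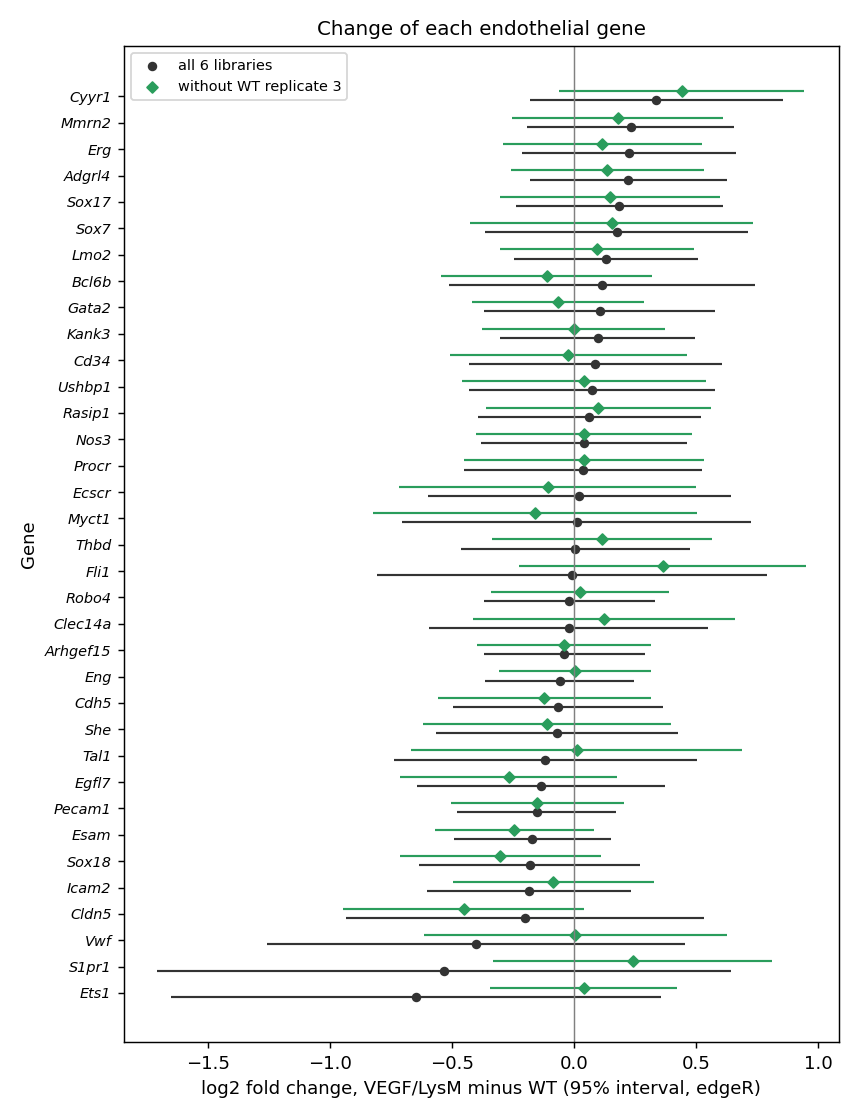
Log2 fold change of each of the 35 genes (x axis, VEGF/LysM minus WT, edgeR) with its 95% interval; black points use all 6 libraries and green diamonds leave out WT replicate 3. Every interval includes 0, and those of Ets1 and S1pr1 are the widest until WT replicate 3 is left out.

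The 16 surface and secreted proteins had 6 log2 fold changes above 0 and 10 below, with a median of -0.04. Their mean log2 level was 4.96, 5.06 and 4.997 in WT and 4.99, 5.05 and 4.92 in VEGF/LysM, so the groups overlapped. Pecam1 (ENSMUSG00000020717, chromosome 11, 106654217 to 106750628, minus strand, GRCm38) encodes the junctional adhesion molecule CD31. It read 102, 109.5 and 107 CPM in WT replicates 1 to 3 and 96.9, 108 and 82.7 CPM in VEGF/LysM replicates 1 to 3. VEGF/LysM replicate 3 was the lowest library, while VEGF/LysM replicate 2 lay among the WT values. The log2 fold change of Pecam1 was -0.15 ± 0.14 (SE), with a 95% interval from -0.48 to 0.17.

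Cdh5 (ENSMUSG00000031871, chromosome 8, 104101625 to 104144511, plus strand) encodes VE-cadherin, the adhesion protein of endothelial adherens junctions. It read 68.8, 96.9 and 74.3 CPM in WT and 82.0, 83.2 and 64.0 CPM in VEGF/LysM. The groups overlapped, WT replicate 2 being the highest library and VEGF/LysM replicate 3 the lowest, and the log2 fold change was -0.07 ± 0.18. Cldn5 (ENSMUSG00000041378, chromosome 16, 18776847 to 18778262, plus strand) encodes claudin-5, the main claudin of endothelial tight junctions. It read 34.9, 23.1 and 15.1 CPM in WT and 18.5, 24.5 and 20.7 CPM in VEGF/LysM. WT held both extremes, and leaving out WT replicate 3 moved the log2 fold change of Cldn5 from -0.20 ± 0.31 to -0.45 ± 0.22 (95% interval -0.95 to 0.042). Esam, an adhesion molecule of endothelial tight junctions, read 51.5, 48.8 and 43.1 CPM in WT and 39.7, 45.5 and 42.1 CPM in VEGF/LysM. The groups of Esam overlapped only in that VEGF/LysM replicate 2 was above WT replicate 3, and the change was -0.17 ± 0.14.

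Among the surface receptors, Eng (ENSMUSG00000026814, chromosome 2, 32646595 to 32682669, plus strand) encodes endoglin, a co-receptor for ligands of the TGF-beta family. It read 141, 149 and 165 CPM in WT and 141, 153 and 143 CPM in VEGF/LysM. WT replicate 3 was the highest, and the SD over the 6 libraries of 0.089 log2 units was the smallest of the 35 genes. The log2 fold change of Eng was -0.06 ± 0.13, with the narrowest interval of the members, -0.36 to 0.25. S1pr1 (ENSMUSG00000045092, chromosome 3, 115710433 to 115715072, minus strand) encodes a receptor for sphingosine-1-phosphate that steadies vessels and that lymphocytes use to leave lymphoid organs. It read 18.3, 31.6 and 78.8 CPM in WT and 26.03, 35.2 and 27.6 CPM in VEGF/LysM. WT held both the lowest and the highest library of S1pr1, and the log2 fold change was -0.53 ± 0.50 with WT replicate 3 and 0.24 ± 0.25 without it.

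Adgrl4, an adhesion receptor enriched in endothelium, read 37.5, 49.6 and 36.3 CPM in WT and 52.6, 43.6 and 47.8 CPM in VEGF/LysM. Mmrn2, an extracellular matrix protein of endothelium, read 31.5, 40.8 and 32.6 CPM in WT and 48.3, 36.4 and 38.6 CPM in VEGF/LysM. For both, WT replicates 1 and 3 were below every VEGF/LysM library and WT replicate 2 was not, with log2 fold changes of 0.22 ± 0.17 for Adgrl4 and 0.23 ± 0.18 for Mmrn2. Cyyr1, which encodes a small membrane protein, read 9.84, 14.02 and 14.8 CPM in WT and 16.9, 14.6 and 17.4 CPM in VEGF/LysM. Its groups overlapped only in that WT replicate 3 was above VEGF/LysM replicate 2, and its change of 0.34 ± 0.22 had the smallest p of the members in edgeR's test, 0.166 before adjustment. The remaining surface genes, Egfl7, Robo4, Icam2, Cd34, Clec14a, Ecscr and Myct1, had log2 fold changes from -0.18 for Icam2 to 0.09 for Cd34, all with overlapping groups, and Egfl7 moved from -0.14 to -0.27 without WT replicate 3.

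**Figure D3:**
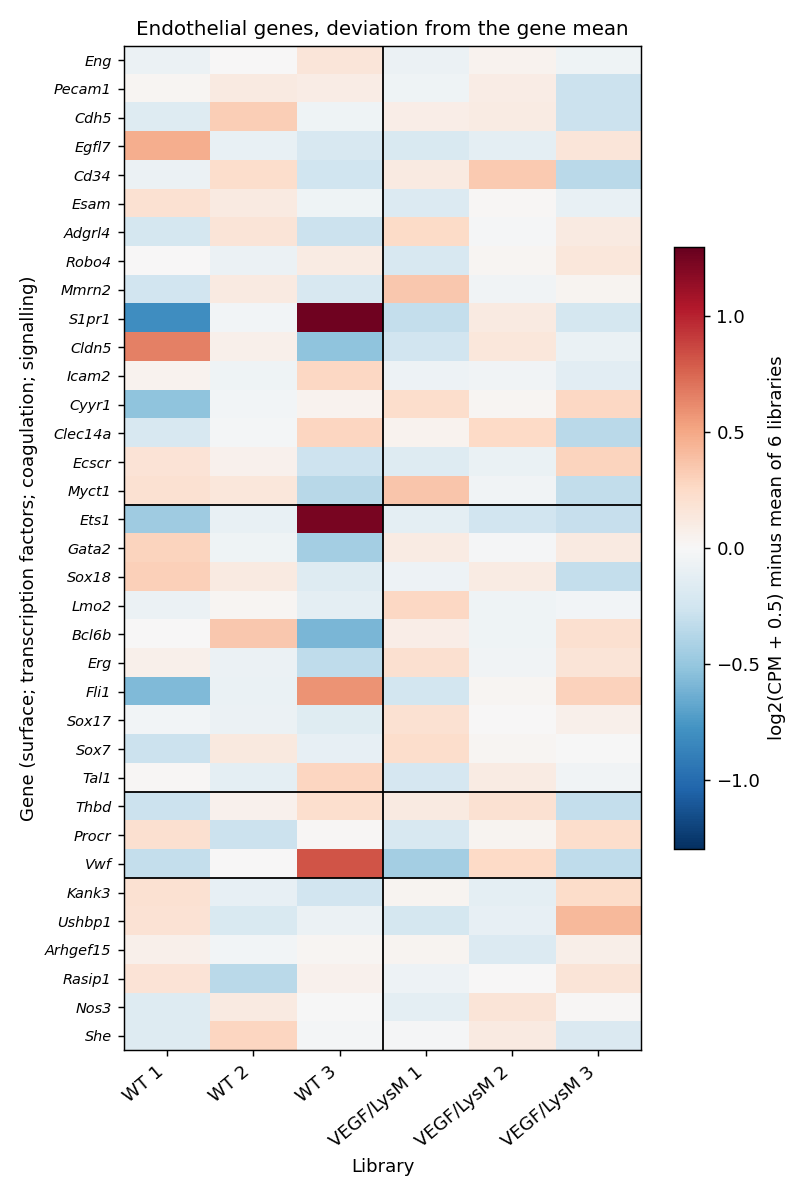
Heat map of log2(CPM + 0.5) minus the gene's mean over 6 libraries (colour scale), with genes in rows, ordered by role and then by mean level, and libraries in columns; black lines separate the roles and the groups. S1pr1, Ets1, Vwf and Fli1 are high in WT replicate 3, Cldn5 and Egfl7 are high in WT replicate 1, and no block of rows separates the groups.

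The 10 transcription factors had 6 log2 fold changes above 0 and 4 below, with a median of 0.11. Their mean log2 level was 4.11, 4.19 and 4.20 in WT and 4.23, 4.17 and 4.20 in VEGF/LysM, with overlap. The SOXF trio of Sox7, Sox17 and Sox18 acts in arterial specification and vessel growth. Sox17 (ENSMUSG00000025902, chromosome 1, 4490931 to 4497354, minus strand) read 11.6, 11.2 and 10.6 CPM in WT and 13.7, 11.9 and 12.4 CPM in VEGF/LysM. Every VEGF/LysM library was above every WT library, and the gap between the nearest values was small. The log2 fold change of Sox17 was 0.19 ± 0.18, with a 95% interval from -0.24 to 0.61 (edgeR, adjusted p = 0.999).

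Sox7 read 6.31, 8.55 and 7.20 CPM in WT and 9.205, 7.94 and 7.77 CPM in VEGF/LysM, with a log2 change of 0.17 ± 0.23. Sox18 read 34.97, 30.6 and 25.1 CPM in WT and 26.9, 30.4 and 22.6 CPM in VEGF/LysM, with a log2 change of -0.18 ± 0.19, or -0.30 ± 0.18 without WT replicate 3. Both overlapped between the groups, so the trio did not share a separation of the libraries. Sox17 shares 16.9% of its exon bases with the unstranded count of Gm37587 on the other strand, which had 4 counts over all libraries.

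The ETS factors Erg, Fli1 and Ets1 bind related sequences and are all expressed in endothelium, and Ets1 and Fli1 also in lymphocytes. Erg, the most endothelial of them, read 18.2, 16.4 and 13.7 CPM in WT and 20.1, 16.8 and 19.5 CPM in VEGF/LysM. WT replicate 1 of Erg lay among the VEGF/LysM values, and the log2 fold change was 0.22 ± 0.19, or 0.12 ± 0.18 without WT replicate 3. Ets1 (ENSMUSG00000032035, chromosome 9, 32636221 to 32757820, plus strand) read 34.7, 44.9 and 113 CPM in WT and 44.0, 40.4 and 38.8 CPM in VEGF/LysM. Apart from WT replicate 3, all libraries of Ets1 lay between 34.7 and 44.9 CPM, and the log2 fold change was -0.65 ± 0.42 with that library and 0.039 ± 0.17 without it. Fli1 read 7.96, 11.3 and 18.3 CPM in WT and 10.1, 12.3 and 14.9 CPM in VEGF/LysM, and its change moved from -0.0072 ± 0.34 to 0.36 ± 0.26 (SE) without WT replicate 3. The other factors, Gata2, Tal1, Lmo2 and Bcl6b, had log2 fold changes from -0.12 for Tal1 to 0.13 for Lmo2, with overlap. Without WT replicate 3, Bcl6b moved from 0.11 to -0.11 and Gata2 from 0.10 to -0.066.

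ETS, SOX and GATA factors are themselves among the members, so the 250 bases before the RefSeq start (GRCm38.p6) of the members were searched for the core letters these families bind. The RefSeq table held a window for 17 of the 35 genes, which left out Pecam1, Cdh5, Esam, Sox17, Sox18, Ecscr, Mmrn2, Icam2, S1pr1, Sox7, Fli1, Nos3, Arhgef15, Bcl6b, Vwf, Thbd, Ets1 and Lmo2. The ETS core CAGGAA was found, on either strand, in 8 of 17 windows (47.1%) and in 25.4% of 27025 promoters. Among the 8, the windows of Cyyr1 and Rasip1 lie wholly in annotated exons, and 75 bases of the Robo4 window do. The other ETS core CCGGAA was in 1 of 17 (5.88%) and in 12.3%. The longer AACAGGAA, which contains CAGGAA, was in 2 of 17 (11.8%) and in 2.15% of all promoters. The SOX core AACAAT was in 1 of 17 (5.88%) against 9.62%, the GATA core AGATAA in 2 of 17 (11.8%) against 10.2%, and TATAAA in 1 of 17 (5.88%) against 13.0%. Such matches describe letters and do not show that a factor binds there. The windows of the AACAGGAA holders, Ushbp1 (chr8:71395803-71396051, minus strand) and Egfl7 (chr2:26580833-26581055, plus strand, inside the annotated gene), are shown with those of Cd34 (chr1:194938571-194938818, plus strand), which has CAGGAA 2 times, and Myct1 (chr10:5593478-5593727, plus strand), the holder of AGATAA and TATAAA as well. The first 3 were cut where an annotated exon began, the Myct1 window holds no exon base, and capitals mark CAGGAA or its reverse complement TTCCTG.
Ushbp1: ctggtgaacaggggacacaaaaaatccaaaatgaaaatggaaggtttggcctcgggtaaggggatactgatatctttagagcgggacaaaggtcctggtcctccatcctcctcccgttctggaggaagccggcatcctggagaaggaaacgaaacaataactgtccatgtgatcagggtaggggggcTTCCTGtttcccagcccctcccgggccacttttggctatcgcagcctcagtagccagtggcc
Egfl7: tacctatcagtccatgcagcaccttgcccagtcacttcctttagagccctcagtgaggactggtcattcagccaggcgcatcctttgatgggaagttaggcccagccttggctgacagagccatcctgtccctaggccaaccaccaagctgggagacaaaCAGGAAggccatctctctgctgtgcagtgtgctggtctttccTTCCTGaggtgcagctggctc
Cd34: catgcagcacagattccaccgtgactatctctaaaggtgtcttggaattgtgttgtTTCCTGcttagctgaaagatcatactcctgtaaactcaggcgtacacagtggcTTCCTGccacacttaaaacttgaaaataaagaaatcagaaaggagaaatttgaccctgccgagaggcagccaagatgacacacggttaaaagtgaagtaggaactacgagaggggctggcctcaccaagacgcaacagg
Myct1: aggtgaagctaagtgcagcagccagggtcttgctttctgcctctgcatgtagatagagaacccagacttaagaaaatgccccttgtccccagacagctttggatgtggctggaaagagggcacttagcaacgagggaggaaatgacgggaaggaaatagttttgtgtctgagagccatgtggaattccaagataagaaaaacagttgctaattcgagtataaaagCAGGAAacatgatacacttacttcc

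None of the 4 genes whose promoters are printed separated the groups. Ushbp1 read 49.1, 37.5 and 40.7 CPM in WT and 36.7, 39.8 and 57.6 CPM in VEGF/LysM. Egfl7, a protein secreted by endothelium, read 81.7, 54.8 and 50.9 CPM in WT and 51.0, 53.8 and 65.6 CPM in VEGF/LysM. Cd34, a sialomucin of endothelium and of blood progenitors, read 44.8, 55.2 and 39.3 CPM in WT and 51.2, 59.9 and 37.0 CPM in VEGF/LysM. The highest library differed from gene to gene, being VEGF/LysM replicate 3 for Ushbp1, WT replicate 1 for Egfl7 and VEGF/LysM replicate 2 for Cd34. Myct1 was lower, at 7.11, 6.85 and 4.68 CPM in WT and 8.03, 5.94 and 4.83 CPM in VEGF/LysM, and its lowest library was WT replicate 3.

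The 3 coagulation genes make and restrain clots at the vessel wall. Vwf (ENSMUSG00000001930, chromosome 6, 125546774 to 125686679, plus strand) encodes von Willebrand factor, which tethers platelets and is also made by megakaryocytes. It read 10.2, 12.8 and 22.9 CPM in WT and 9.26, 15.4 and 10.1 CPM in VEGF/LysM. WT replicate 3 was the highest, and the log2 fold change was -0.40 ± 0.36 with it and 0.0056 ± 0.27 without it. Markers of platelets and megakaryocytes summed to 20.6 CPM in WT replicate 3 and to 9.44 to 13.1 CPM elsewhere, with Gp1bb at 0 in all 6 libraries, and the part of these cells in the Vwf value was not tested. Thbd, the thrombin-binding anticoagulant thrombomodulin, read 35.9, 45.5 and 50.7 CPM in WT and 47.3, 50.2 and 35.2 CPM in VEGF/LysM. Procr, the endothelial protein C receptor, read 22.5, 15.9 and 19.5 CPM in WT and 16.7, 19.9 and 22.7 CPM in VEGF/LysM. The groups overlapped for both Thbd and Procr, with log2 fold changes of 0.0059 ± 0.199 and 0.036 ± 0.21.

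The 6 signalling genes had 4 log2 fold changes above 0 and 2 below, all between -0.07 for She and 0.10 for Kank3. Kank3, a scaffold protein of the KANK family, read 70.7, 57.1 and 51.8 CPM in WT and 63.2, 56.4 and 72.4 CPM in VEGF/LysM. The groups overlapped, with the highest library in VEGF/LysM and the lowest in WT. Nos3, which makes the vasodilator nitric oxide, read 14.6, 17.8 and 16.3 CPM in WT and 15.01, 18.5 and 16.7 CPM in VEGF/LysM. Arhgef15 read 37.0, 34.5 and 35.9 CPM in WT and 36.2, 31.2 and 37.1 CPM in VEGF/LysM, the second tightest set of values among the members after Eng. Rasip1, needed to open the lumen of vessels, had a log2 fold change of 0.062 ± 0.19. Exons of 9 of the 35 genes overlap those of another gene, and unstranded counts cannot separate reads from such overlaps. The largest shared parts were 25.2% of the exon bases of Nos3, with the antisense transcript Gm15587 (22 counts over all libraries), and 20.4% of those of Rasip1, with Izumo1 (25 counts). Smaller parts are shared with genes of more reads: 1.79% of Egfl7 with Agpat2 (27499 counts against 6194 for Egfl7), 2.7% of Kank3 with Rps28 (10243 against 6431) and 1.51% of Eng with Fpgs (2985 against 15328).

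Levels can be compared between genes only per length, so CPM was divided by the kilobases of merged exon. Merged exon holds the bases of all annotated transcripts of a gene (16064 for Vwf). A gene whose expressed transcripts are shorter than that reads too low, which limits the order below. On this scale Eng was the highest member, at 36.7 ± 2.33 CPM per kb (SD over the 6 libraries), and its lowest library was above the highest of every other member. Next came Kank3 at 19.0 ± 2.56, Cdh5 at 18.6 ± 2.81, Sox18 at 17.6 ± 2.75, Egfl7 at 16.7 ± 3.38, Pecam1 at 16.2 ± 1.62, Cldn5 at 16.1 ± 4.81 and Esam at 15.7 ± 1.54 CPM per kb. Neighbours in the order among these 7 differed by less than the spread between libraries. The order ended with Tal1 at 1.01 ± 0.141 and Vwf at 0.837 ± 0.322 CPM per kb. Within the SOXF trio, Sox18 was far above Sox17 (2.498 ± 0.225) and Sox7 (2.37 ± 0.307), and the last 2 differed by less than their spread.

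**Figure D4:**
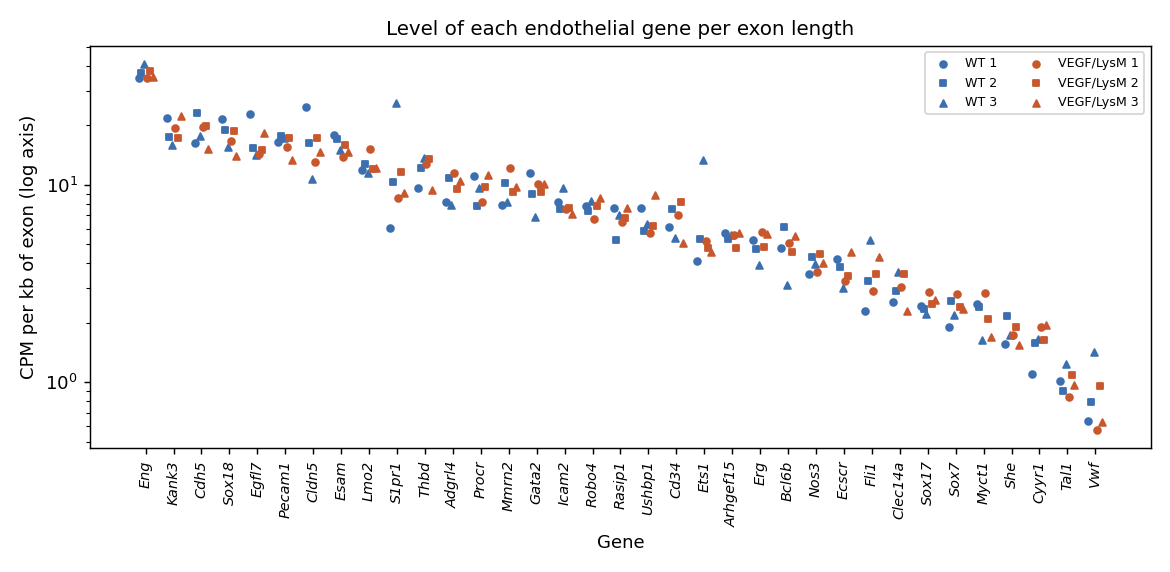
Level of each of the 35 genes in CPM per kb of merged exon (log axis), ordered from the highest to the lowest mean; each mark is 1 library, blue for WT and orange for VEGF/LysM, with the shape giving the replicate. Eng stands alone at 36.7 ± 2.33 CPM per kb, and the WT replicate 3 marks of S1pr1, Ets1 and Vwf lie above their other libraries.

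In WT replicate 3, 7 of the 35 members lay beyond 0.5 log2 units from their mean in the other 5 libraries, against 37.0% of all genes tested. Against the mean of the other 5 libraries it was higher by 1.52 log2 units for S1pr1, 1.48 for Ets1, 0.98 for Vwf and 0.70 for Fli1. It stood at -0.72 for Bcl6b, -0.63 for Cldn5 and -0.53 for Gata2 on the same measure. It held the highest value of 9 members, among them 5 of the 10 listed above for blood cells and 4 of the other 25, Vwf included. It held the lowest value of 11, of which 8 were among the other 25. Over all genes tested it held the highest value for 28.4% and the lowest for 29.7%, so these counts are near the background. The lymphocyte and liver markers that mark this library are given above, and their part in these 7 deviations was not tested.

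In WT replicate 1, members with short exons tended, weakly, to read higher than in the other libraries. Against the mean of WT replicate 2 and the 3 VEGF/LysM libraries it was higher by 0.68 log2 units for Cldn5, 0.54 for Egfl7 and 0.34 for Sox18. It stood at -0.69 for S1pr1, -0.64 for Cyyr1 and -0.57 for Fli1. Length did not order these 6 fully, since S1pr1 (3046 bases) and Fli1 (3486) are shorter than Egfl7 (3581) while Cldn5 (1416) and Sox18 (1620) are short and Cyyr1 (8894) is long. Across the 35 genes the Spearman correlation between this deviation and merged exon length was -0.40, and across 16285 genes with a length it was -0.34. These are correlations across genes of the same libraries, which are not independent replicates, so they carry no p.

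**Figure D5:**
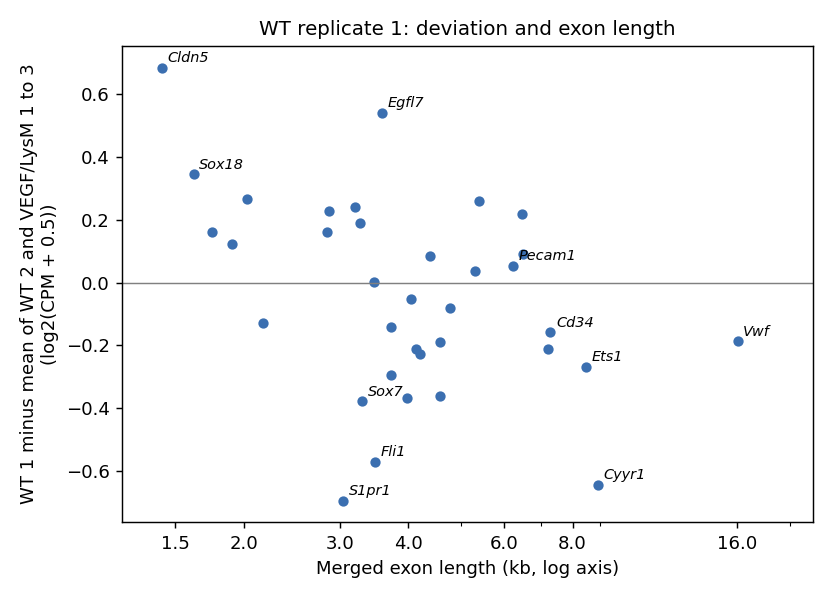
Deviation of WT replicate 1 from the mean of WT replicate 2 and VEGF/LysM replicates 1 to 3 in log2(CPM + 0.5) (y axis) against merged exon length in kb (x axis, log scale); each point is 1 of the 35 genes. Points with short exons such as Cldn5 tend to lie above 0 and the long Cyyr1 lies below it, with a Spearman correlation of -0.40.

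VEGF/LysM replicate 3 had 1 member beyond 0.5 log2 units from the other 5 libraries, against 19.1% of all genes tested. Against VEGF/LysM replicates 1 and 2, Ushbp1 was higher there by 0.59 log2 units, Ecscr by 0.42 and Fli1 by 0.40. Cd34 stood at -0.57, Clec14a at -0.50, Myct1 at -0.48 and Thbd at -0.46 on the same measure. Of 10 medulla markers, 8 were highest in this library, which also held the liver transcripts given above. The part of medulla and of liver tissue in these values was not tested.

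Endothelial genes outside the 35 also overlapped between the groups in their mean, but that mean varied more between libraries. Over 30 of them the mean log2 level was 5.11, 5.21 and 5.24 in WT and 5.30, 5.22 and 5.10 in VEGF/LysM, a difference of 0.018. The 6 values ranged over 0.198 log2 units, against 0.069 for the 35. Leaving out 1 library moved the group difference between -0.046 (without VEGF/LysM replicate 1) and 0.071 (without VEGF/LysM replicate 3). It was 0.10 without both libraries with liver transcripts and 0.12 as a median over genes, so its sign is not settled. edgeR's quasi-likelihood test called 0 of the 30, with 22 log2 fold changes above 0, 8 below and a median of 0.057. Kdr, the main signalling receptor for VEGF-A, read 119, 132 and 132 CPM in WT and 156, 148 and 122 CPM in VEGF/LysM. Flt1, a VEGF receptor that also traps the ligand, read 74.6, 79.6 and 88.9 CPM in WT and 119, 84.0 and 74.7 CPM in VEGF/LysM. VEGF/LysM replicate 1 was the highest library for both receptors and VEGF/LysM replicate 3 lay within the WT range, with log2 fold changes of 0.15 ± 0.14 for Kdr and 0.19 ± 0.20 for Flt1.

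The angiopoietin receptor Tek read 46.6, 58.2 and 38.7 CPM in WT and 65.7, 49.8 and 55.7 CPM in VEGF/LysM, with a log2 change of 0.25 ± 0.19. Its partner Tie1 read 85.1, 81.9 and 71.3 CPM in WT and 79.9, 75.5 and 71.0 CPM in VEGF/LysM, with a log2 change of -0.074 ± 0.13. Both overlapped between the groups. Slco2a1, a prostaglandin transporter, read 11.4, 14.4 and 65.6 CPM in WT and 14.2, 12.4 and 7.83 CPM in VEGF/LysM. WT replicate 3 alone was high for Slco2a1, whose log2 fold change of -1.40 ± 0.68 was the farthest from 0 in this list and became -0.17 ± 0.28 without that library.

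Set against the endothelial mean of the same library, the mean of fenestrated capillary genes was higher in VEGF/LysM by a margin that has no test. The list of 18 genes, of which Kdr, Flt1 and Emcn are also among the 30 above, had a mean log2 level above the endothelial mean by 2.03, 2.02 and 1.83 in WT and by 2.06, 2.15 and 2.09 in VEGF/LysM. These values did not overlap, at 1.96 ± 0.11 and 2.10 ± 0.046 (SD, n = 3), a difference of 0.14. Without Fabp4, Cd36 and Lpl, which adipocytes also express, the values were 1.52, 1.45 and 1.26 in WT and 1.51, 1.56 and 1.47 in VEGF/LysM, which overlapped. Without WT replicate 3 the difference was 0.076.

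Plvap, the diaphragm protein of fenestrae, read 240.0, 193 and 148 CPM in WT and 187, 199 and 199.7 CPM in VEGF/LysM. WT held both extremes of Plvap, and its log2 fold change was 0.010 ± 0.20, or -0.15 ± 0.15 without WT replicate 3. Cd36, a fatty acid transporter of capillaries, adipocytes and macrophages, read 315, 479.7 and 339.8 CPM in WT and 547, 543 and 518 CPM in VEGF/LysM. The groups of Cd36 did not overlap, as for 3.54% of all genes tested in the same direction. Its log2 fold change was 0.50 ± 0.20 (edgeR, adjusted p = 0.999), with the only p under 0.05 before adjustment among the 18. Cd300lg, a mucin-like surface protein of capillaries, read 50.2, 54.3 and 56.5 CPM in WT and 70.4, 55.4 and 66.3 CPM in VEGF/LysM. VEGF/LysM replicate 2 of Cd300lg lay within the WT range, and the change was 0.25 ± 0.14. The summed adipocyte markers, a list added after the values were seen, ran from 2748 to 4096 CPM over the WT libraries and from 1580 to 4336 CPM over the others, and their part in Cd36 was not tested.

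Lists for vessel types gave the following values. Of 12 arterial genes, 3 log2 fold changes were above 0 and 9 below, with a median of -0.15, and the list's mean log2 level was 3.45, 3.23 and 3.32 in WT and 3.02, 3.38 and 3.05 in VEGF/LysM. Of 8 venous genes, 4 were above 0 and 4 below, with mean log2 levels of 3.22, 3.40 and 3.12 in WT and 3.41, 3.26 and 3.28 in VEGF/LysM. The groups overlapped for the arterial and the venous list. Of 6 tested lymphatic genes 2 were above 0 and 4 below, with mean log2 levels of 2.72, 2.70 and 3.72 in WT and 2.67, 2.57 and 2.42 in VEGF/LysM. WT replicate 3 was the highest library for 5 of the 7 genes of the lymphatic list, in which Lyve1 is also a gene of liver sinusoidal endothelium, and the part of liver tissue in that value was not tested. Every WT mean log2 level of this list was above every VEGF/LysM one, by a small margin apart from WT replicate 3. The difference of -0.49 became -0.16 without that library. Summed without logs, the list overlapped between the groups, at 95.3, 110 and 176 CPM in WT and 138, 112 and 140 CPM in VEGF/LysM. The log2 mean gives the low gene Mmrn1, described next, the same weight as the abundant ones. Mmrn1, a lymphatic and platelet protein named here after its values were seen, read 2.27, 2.16 and 5.12 CPM in WT and 0.586, 0.263 and 0.589 CPM in VEGF/LysM. Its groups did not overlap on counts of 5 to 69 per library, as for 2.41% of all genes tested in the same direction. Its log2 fold change was -2.72 ± 0.53, or -2.21 ± 0.51 without WT replicate 3 (edgeR, adjusted p = 0.999 with all libraries). No gene tested had a smaller p than Mmrn1 with all 6 libraries. The other tested lymphatic genes stood at -1.56 ± 0.74 (Reln), -0.96 ± 0.66 (Lyve1), -0.015 ± 0.20 (Flt4), 0.12 ± 0.38 (Pdpn) and 0.49 ± 0.25 (Prox1), all with overlapping groups. edgeR's quasi-likelihood test called 0 genes of these 3 lists.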

How the data were processed

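Whole-number counts per gene and library were deposited by the authors, not normalised, as the values show. Per the labels' protocols, RNA of whole glands with high integrity went into Smart-seq2 type libraries, whose reads carry no strand. The submitters' processing notes name kallisto, DESeq2 1.36.0 and the mm10 build. What each tool did, the annotation and how transcript estimates became whole counts: not given in the sources used here. Columns were matched to samples by title, and 54409 of 54532 identifiers matched a symbol.

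Genes were kept by filterByExpr (minimum count 10, minimum total 15), scaled by TMM and tested with edgeR 4.0.16 under R 4.3.3 (quasi-likelihood, group as the only term). Adjustment was by Benjamini-Hochberg over all 16300 genes, with a threshold of 0.05. Standard errors and 95% intervals come from the fitted model. An exact permutation of 3 against 3 cannot go below p = 0.1, so single values were not tested alone. Library totals of 16476879 to 18671950 counts leave counting error largest for genes near 4 CPM and below. Mean log2 values add 0.5 CPM. Coordinates and exon lengths are from GENCODE M21 (GRCm38), and promoters from RefSeq. The fit was also run on counts simulated from its own fitted dispersions. Those counts held no tissue admixture and no length effect, so that run cannot show how the fit handles them.

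The 35 genes, the marker lists and the tests were chosen with earlier results of these data known. Values per library are given always for Pecam1, Cdh5, Cldn5, Eng, Erg, Vwf and the SOXF genes, for the 5 members of smallest p, the 3 of highest level per kb and the 3 of largest spread. In the other endothelial list they are given for Kdr, Flt1, Tek, Tie1 and the 2 of smallest p, and in the capillary list for Plvap and the 2 of smallest p. Other members with values per library were named after their values were seen. Alternatives were scaling by DESeq2 1.42.0 size factors, by upper quartiles or by library size only, dropping the filter or asking for 1 CPM in 3 libraries, a block for the replicate number, leaving out each library, both libraries with liver transcripts left out, the DESeq2 and limma-voom (limma 3.58.1) tests, a threshold of 0.1, a pseudocount of 2 CPM and medians in place of means.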

Additional observations from a re-analysis of the deposited data

How the results depend on the processing

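Over 15 alternatives a gene, 0 member calls were made and the smallest member adjusted p was 0.666 (Adgrl4, edgeR), against 0.999 in the reported fit. Of the 35 log2 fold changes, 10 kept their sign in all 15 (Adgrl4, Cyyr1, Erg, Esam, Icam2, Mmrn2, Pecam1, Sox17, Sox18 and Sox7) and 25 did not. With DESeq2 size factors, the log2 fold change changed sign for Thbd (-0.0029). With upper-quartile scaling, the log2 fold change changed sign for Robo4 (0.011), Clec14a (0.014) and Fli1 (0.040). With library size only, the log2 fold change changed sign for Cdh5 (0.025), Eng (0.055), Robo4 (0.091), Clec14a (0.10), Tal1 (0.0051), Fli1 (0.16), She (0.024) and Arhgef15 (0.062). Without both libraries with liver transcripts (replicate 3 of each group), the log2 fold change changed sign for Cdh5 (0.0025), Eng (0.028), Ecscr (-0.26), Clec14a (0.29), S1pr1 (0.30), Tal1 (0.021), Fli1 (0.22), Kank3 (-0.090), Gata2 (-0.079), Ushbp1 (-0.17), Bcl6b (-0.17), Vwf (0.11), Procr (-0.060) and Ets1 (0.089). With the replicate block, the log2 fold change changed sign for Fli1 (0.055). With the DESeq2 test, the log2 fold change changed sign for Myct1 (-0.00065) and Thbd (-0.0025). With limma-voom, the log2 fold change changed sign for Myct1 (-0.017) and Fli1 (0.090). Leaving out each library in turn gave ranges that crossed 0 for 25 genes: -0.087 to 0.016 for Arhgef15, -0.11 to 0.36 for Bcl6b, -0.091 to 0.26 for Cd34, -0.16 to 0.098 for Cdh5, -0.45 to 0.15 for Cldn5, -0.19 to 0.13 for Clec14a, -0.14 to 0.13 for Ecscr, -0.27 to 0.11 for Egfl7, -0.11 to 0.0037 for Eng, -0.94 to 0.039 for Ets1, -0.25 to 0.36 for Fli1, -0.066 to 0.31 for Gata2, -0.0014 to 0.24 for Kank3, -0.0022 to 0.18 for Lmo2, -0.23 to 0.17 for Myct1, -0.054 to 0.12 for Nos3, -0.086 to 0.16 for Procr, -0.079 to 0.18 for Rasip1, -0.10 to 0.055 for Robo4, -0.89 to 0.24 for S1pr1, -0.16 to 0.077 for She, -0.23 to 0.010 for Tal1, -0.12 to 0.15 for Thbd, -0.15 to 0.20 for Ushbp1 and -0.68 to 0.0056 for Vwf. The count of all genes called was 0 to 1 over the libraries left out, the 1 call (without WT replicate 3) being Sumo2, which is no member and is named only for that call. The endothelial difference was -0.036 to 0.0071 with each library left out, the lowest without VEGF/LysM replicate 2, and 0.11 with library size only. The difference of the other endothelial genes was 0.13 with library size only and 0.12 as a median over genes, and the capillary list minus the endothelial mean was 0.049 as a median over genes. The cause of these moves was not tested. The list without Fabp4, Cd36 and Lpl was chosen after seeing the data and gave 0.099. Values without WT replicate 3 for genes outside the 35 were also added then, and Plvap changed sign there (-0.15). With the replicate block 0 genes were called (270 at an unadjusted p under 0.05 in edgeR's test). The differences in means (-0.0032, 0.018 and 0.14) are by arithmetic the same with and without the block, so they carry no check of it. Same-numbered samples correlated at 0.071, -0.0027 and 0.25 in their deviations, so the numbers were not taken as pairs. Not every sample correlated best with its own number.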
